A study of Homo sapiens with 27 samples.

Results

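The interleukin-1 family and its receptors were followed here through 10 genes, taken by name: the ligands IL1A, IL1B, IL18 and IL36G, the receptor antagonist IL1RN, the interleukin-18 binding protein IL18BP, the signalling receptors IL1R1, IL1RAP and IL18R1, and the decoy receptor IL1R2. All 10 were found among the 20453 genes counted, and all 10 passed the filter on low counts in RNA and in footprints. The cells were THP-1, a human monocytic leukaemia line, which a 24 h exposure to PMA (a phorbol ester, at 10 ng/ml) had made macrophage-like. They then received, for 3 h, vehicle (ethanol in PBS), LPS (lipopolysaccharide at 100 ng/ml, a bacterial product sensed by Toll-like receptor 4), or the same LPS with 1 µM of the glucocorticoid dexamethasone (LPS+Dex). Every group had therefore seen PMA, no group had dexamethasone without LPS, and all samples came from this 1 line. Ribosome profiling, which sequences the mRNA fragments covered by ribosomes (footprints), had 5 libraries per treatment, and poly(A) RNA-seq of the same cells had 4, so that 27 libraries entered in all.

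IL-1α and IL-1β bind IL1R1, which then recruits the accessory protein IL1RAP, and the pair signals through MYD88 and IRAK kinases to NF-κB. IL-18 does the same through IL18R1 and IL18RAP, and IL-36γ through IL1RL2 and IL1RAP. Several proteins hold the family in check. The antagonist IL-1Ra (IL1RN) occupies IL1R1 without signalling, IL1R2 binds IL-1 but lacks a signalling domain, and IL-18BP captures IL-18 in solution. IL-1β and IL-18 are made as precursors that caspase-1 cuts in the inflammasome, so mRNA and footprints speak of the precursors and not of released cytokine. Monocytes and macrophages are a main source of IL-1β, and glucocorticoids are known both to repress IL1B and to raise IL1R2.

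Total counts were 19.0 to 30.7 M per RNA library and 11.5 to 26.1 M per footprint library, and levels are given as CPM (counts per 1 M counts of a library, with library sizes scaled by TMM). All 10 macrophage and monocyte markers checked (among them CD14, CD68 and SPI1) were at 1 CPM or more in every treatment, while none of the B cell or epithelial markers was. In RNA the 3 endothelial markers (2 at 1 CPM or more) summed to 251 to 430 CPM with vehicle, 123 to 175 with LPS and 140 to 183 with LPS+Dex, and the 3 fibroblast markers (1 at 1 CPM or more) to 5.57 to 8.13, 7.24 to 10.8 and 22.0 to 26.3 CPM. The T and NK cell markers (2 of 4) summed to 19.5 to 27.5, 17.2 to 25.6 and 27.9 to 40.9 CPM, and the neutrophil markers (1 of 3, with FCGR3B at 0) to 10.1 to 14.9, 6.70 to 7.46 and 7.48 to 9.91 CPM. The macrophage and monocyte sum was itself lower with LPS (4489 to 4871 CPM) and LPS+Dex (4516 to 4788) than with vehicle (5729 to 6082). The part of these shifts in the results was not tested. As the samples are bulk, fewer cells making an mRNA and less of it per cell cannot be told apart. The footprint library numbered 4 stood apart in each treatment. It lay above all other libraries of its group for 6 of the 10 genes with vehicle, 7 with LPS and 7 with LPS+Dex, and below them for 2, 0 and 1. For IL1RN it was 10.5-fold, 8.76-fold and 11.7-fold above the mean of the other 4 libraries, and the cause was not tested. Footprint changes were therefore also computed without these 3 libraries and in a fit that blocks on replicate number.

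The family's genes lie mainly in a pair of clusters on chromosome 2 (GRCh38.p14). The receptor cluster holds IL1R2 (chr2:101991960-102028544), IL1R1 (chr2:102070390-102179874) and IL18R1 (chr2:102355796-102398776), and the ligand cluster holds IL1A (chr2:112773925-112784493), IL1B (chr2:112829751-112836779), IL36G (chr2:112978006-112985658) and IL1RN (chr2:113099360-113134014). IL1RAP is on chromosome 3 (chr3:190514085-190659750), and IL18 (chr11:112143260-112164094) and IL18BP (chr11:71998909-72008200) are on chromosome 11. IL18BP shares 5337 bases of its span with NUMA1, which is also counted, and IL1R1 shares 7254 with the noncoding gene IL1R1-AS1. The strand setting of the authors' counting is not given in the sources used here, so reads in these stretches could belong to either gene.

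The windows just upstream of 4 of these genes are shown because their genes span the responses described below: IL1A and IL1B, which rose alike with LPS and fell by different amounts with dexamethasone, IL18R1, which followed IL1B, and IL1R2, which rose with dexamethasone. Each is the 250 bases before the outermost RefSeq start of the gene (GRCh38.p14), 5′ to 3′ on the gene's strand, with matches to 4 short motifs in capitals. They are chr2:112784494-112784743 (minus strand) for IL1A, chr2:112836780-112837029 (minus) for IL1B, chr2:102355546-102355795 (plus) for IL18R1 and chr2:101991710-101991959 (plus) for IL1R2.
IL1A: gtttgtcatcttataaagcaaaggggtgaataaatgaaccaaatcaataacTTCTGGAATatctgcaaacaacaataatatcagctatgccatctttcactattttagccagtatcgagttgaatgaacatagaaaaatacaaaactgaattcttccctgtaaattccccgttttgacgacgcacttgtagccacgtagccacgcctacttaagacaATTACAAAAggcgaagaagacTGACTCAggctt
IL1B: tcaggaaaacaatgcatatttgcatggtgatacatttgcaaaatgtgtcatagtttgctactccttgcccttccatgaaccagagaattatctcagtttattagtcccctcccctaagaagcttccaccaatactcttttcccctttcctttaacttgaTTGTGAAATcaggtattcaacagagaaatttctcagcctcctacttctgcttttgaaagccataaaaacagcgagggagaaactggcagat
IL18R1: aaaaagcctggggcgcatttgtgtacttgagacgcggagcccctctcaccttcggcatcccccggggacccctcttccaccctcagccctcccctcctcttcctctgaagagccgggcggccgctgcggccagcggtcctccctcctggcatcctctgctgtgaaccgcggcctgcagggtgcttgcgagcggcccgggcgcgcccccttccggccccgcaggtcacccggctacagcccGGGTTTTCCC
IL1R2: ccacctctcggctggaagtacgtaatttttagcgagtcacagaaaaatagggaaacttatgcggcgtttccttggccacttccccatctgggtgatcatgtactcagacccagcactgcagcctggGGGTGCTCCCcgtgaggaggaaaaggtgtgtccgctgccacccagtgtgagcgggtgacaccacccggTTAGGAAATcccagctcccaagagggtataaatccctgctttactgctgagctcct
The motifs, searched on both strands, were an NF-κB-like motif (GGGA, any 4 bases, then CC), an AP-1-like TGANTCA, a C/EBP-like TTNNGNAAT and a glucocorticoid-receptor-like ACANNNTGT. The capitals mark a pair of C/EBP-like matches and 1 AP-1-like match in IL1A, 1 C/EBP-like match in IL1B, 1 NF-κB-like match ending at the last base in IL18R1, and 1 NF-κB-like and 1 C/EBP-like match in IL1R2. RefSeq windows were found for 9 of the 10 genes, 20 windows in all, several of them overlapping. Of these, 5 held the NF-κB-like letters, 3 the AP-1-like, 5 the C/EBP-like and 0 the glucocorticoid-receptor-like. By gene these were 4, 2, 4 and 0 of the 9, and a match shared by overlapping windows was counted in each. Among 35116 windows of the same length over all genes the shares were 22.6%, 6.57%, 9.85% and 4.61%. A match is a run of letters in these windows and not a binding site, and enhancers lie outside them.

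With LPS, 8 of the 10 genes were higher in RNA than with vehicle, 1 was lower and 1 did not pass the test, where 62.2% of all 13327 genes tested were called (28.6% higher and 33.6% lower). The median of the 10 was 2.15 on the log2 scale, against -0.05 for all genes. In footprints 7 rose and 1 fell, where 52.6% of genes were called (25.4% higher and 27.2% lower). Without the libraries numbered 4, 8 rose and 1 fell. The share of all genes called in that setting is not given here, so the higher count is not read as a result about the 10. With dexamethasone added, 7 of the 10 fell in RNA against LPS alone and 1 rose, where 30.9% of genes were called (15.5% higher and 15.4% lower), with a median of -1.60 against 0.01 for all genes. In footprints 6 fell and 1 rose, where 17.1% of genes were called (9.08% higher and 7.99% lower). Without the libraries numbered 4, 7 fell and 2 rose. Calls over all genes then rose too, from 2083 of 12197 to 3855 of 12233 (1980 higher and 1875 lower). The libraries of the groups compared did not overlap for 8 of the 10 genes in RNA with LPS (52.8% of all genes), 8 with LPS+Dex against LPS (34.2%) and 10 with LPS+Dex against vehicle (52.4%). In footprints this held for 7 (38.5% of all genes), 6 (13.8%) and 4 (32.8%), library 4 included. The comparisons share the LPS libraries, so a high LPS value enters both.

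IL1B, the main secreted agonist of macrophages, was at 811, 858, 917 and 635 CPM in the 4 vehicle RNA libraries. It was at 14677, 14641, 17540 and 14795 CPM with LPS, and at 5189, 4811, 4815 and 4611 CPM with LPS+Dex. The groups did not overlap. The rise with LPS was 4.26 ± 0.12 (log2, SE; adjusted p = 1.4e-12), or 19.1-fold, and dexamethasone lowered the LPS level 3.17-fold (-1.67 ± 0.10, adjusted p = 3.7e-08). IL1B held the highest count of any gene in all 4 LPS RNA libraries (1.35% to 1.61% of all counts) and in all 5 LPS footprint libraries (2.82% to 3.84%), and it still ranked 2 in every LPS+Dex footprint library. Of the LPS increment in RNA over vehicle, 27.7% was left with LPS+Dex.

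IL1B footprints were at 1815, 1906, 1773, 5569 and 1259 CPM with vehicle, at 34374, 35731, 36406, 62273 and 28814 CPM with LPS, and at 12630, 11278, 11257, 32751 and 11898 CPM with LPS+Dex, in replicate order. Library 4 was the highest in all 3 groups, and LPS+Dex and LPS overlapped only through it. The rise with LPS was 4.00 ± 0.47 (adjusted p = 4.7e-06) and the change with dexamethasone -1.31 ± 0.42 (adjusted p = 0.046). That second call ended in 11 of the 15 fits that left out 1 footprint library (vehicle 1, 2 or 3, LPS 1, 2, 3 or 4, LPS+Dex 1, 2, 3 or 5), with adjusted p up to 0.1. The replicate block gave -1.41 (adjusted p = 8.5e-08), and without the libraries numbered 4 it was -1.52 ± 0.09 (adjusted p = 9.8e-12), from 33831 ± 3450 to 11765 ± 648 CPM (mean ± SD, n = 4).

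IL1A, the sister agonist that is active as a precursor, rose as much and kept less of the rise with dexamethasone. RNA was at 2.35, 2.31, 2.55 and 1.17 CPM with vehicle, 39.5, 37.5, 44.0 and 39.0 CPM with LPS, and 3.93, 2.87, 3.90 and 4.09 CPM with LPS+Dex. The LPS libraries stood far above both other groups, and LPS+Dex lay just above vehicle without overlap. The rise was 4.25 ± 0.19 (adjusted p = 1.9e-10), and the fall with dexamethasone was -3.44 ± 0.18 (adjusted p = 7.3e-09), or 10.8-fold. Thus 4.23% of the LPS increment was left, against the 27.7% of IL1B, a difference that was not tested.

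In footprints IL1A went from 2.75, 4.43, 4.65, 11.6 and 2.57 CPM with vehicle to 75.4, 94.9, 102, 433 and 69.7 CPM with LPS, and it was at 9.12, 7.90, 8.44, 53.1 and 9.17 CPM with LPS+Dex. Library 4 was again the highest in each group, by 3.23-fold, 5.06-fold and 6.13-fold over the mean of the others. The changes were 4.94 ± 0.78 (adjusted p = 8.1e-05) and -3.15 ± 0.71 (adjusted p = 0.0056). The latter was -2.3 without LPS library 4, -4.16 without LPS+Dex library 4 and -3.30 ± 0.15 without all 3 (adjusted p = 2.6e-14).

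IL36G, an agonist best known from epithelia, rose with LPS from few counts. Its RNA rise was within the error of those of IL1A, IL1B and IL18R1. RNA was at 0.419, 0.537, 0.290 and 0.379 CPM with vehicle, 8.55, 8.99, 7.38 and 7.63 CPM with LPS, and 1.56, 1.20, 1.30 and 1.31 CPM with LPS+Dex. The 3 groups were fully separate, at 10 to 13 counts per vehicle library. The rise was 4.34 ± 0.17 (adjusted p = 6.4e-11) and the fall with dexamethasone -2.60 ± 0.15 (adjusted p = 1.8e-08). Footprints rose by 5.98 ± 0.53 (adjusted p = 2.3e-07) and then fell with dexamethasone by 4.18 (SE 0.46, adjusted p = 1.0e-05). Their level was 0.0375 to 0.362 CPM with vehicle (1 to 10 counts per library), 6.19 to 22.6 CPM with LPS and 0.248 to 0.760 CPM with LPS+Dex, the 22.6 being library 4. Without the libraries numbered 4 the footprint changes were 5.42 and -3.75.

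IL18, a precursor cytokine that macrophages hold at a basal level, moved little with LPS and fell below vehicle with dexamethasone. RNA was at 2.56, 3.14, 2.52 and 3.21 CPM with vehicle, 4.12, 4.57, 3.16 and 4.66 CPM with LPS, and 1.51, 1.72, 1.95 and 2.29 CPM with LPS+Dex. LPS replicate 3 lay inside the vehicle range, whereas every LPS+Dex library was below every other. The rise of 0.53 ± 0.16 (adjusted p = 0.011) was 0.26 (adjusted p = 0.18) when libraries were scaled by total counts alone, and the fall with dexamethasone was -1.15 ± 0.17 (adjusted p = 0.00017). Footprints gave 0.89 ± 0.26 with LPS (adjusted p = 0.01), which was 0.39 (adjusted p = 0.25) under total counts alone and 0.59 (adjusted p = 0.028) without the libraries numbered 4. With dexamethasone they gave -1.56 ± 0.28 (adjusted p = 0.00095), or -1.28 ± 0.25 (adjusted p = 0.00029) without those libraries. Footprint counts of IL18 were 17 to 119 per library, so its changes rest on few reads.

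**Figure D1:**
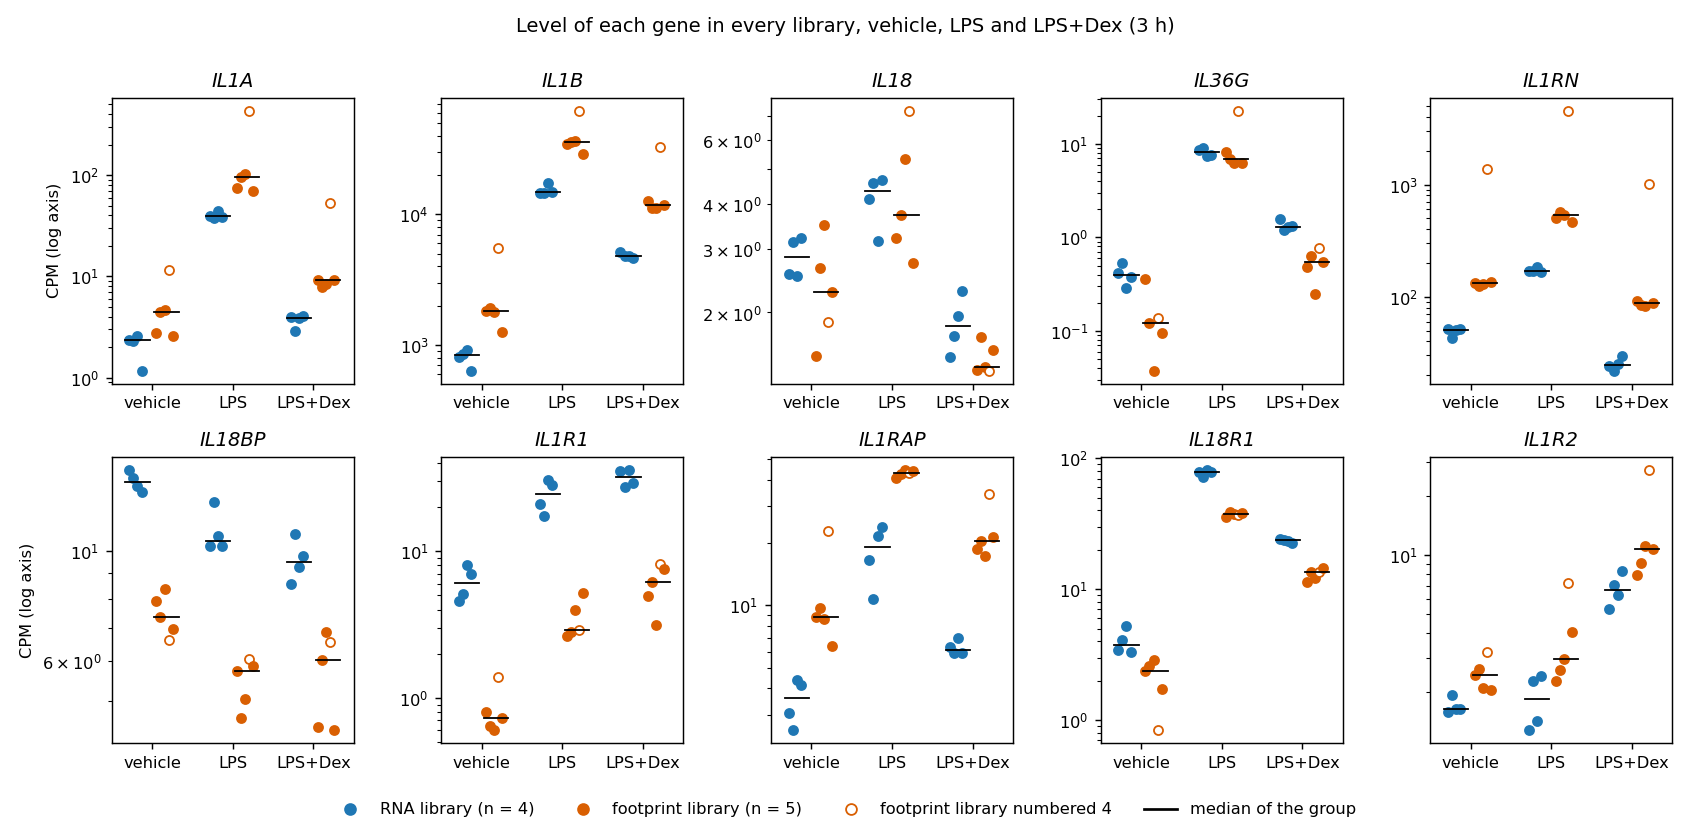
Level of each of the 10 genes in every library, in CPM on a log axis, with RNA in blue (n = 4 per treatment), footprints in orange (n = 5) and the footprint library numbered 4 as an open circle, and bars at the group medians. IL1A, IL1B, IL36G, IL1RN, IL1RAP and IL18R1 peak with LPS, IL1R2 is highest with LPS+Dex, and the open circles lie highest in each group for IL1A, IL1B and IL1RN.

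Of the proteins that hold the family in check, the antagonist IL1RN rose with LPS and then fell below its vehicle level. IL1RN RNA was at 52.0, 43.3, 50.5 and 51.2 CPM with vehicle, 171, 169, 184 and 166 CPM with LPS, and 24.0, 21.9, 25.0 and 29.5 CPM with LPS+Dex. No library of any group overlapped another group. The rise was 1.81 ± 0.09 (adjusted p = 8.8e-10), or 3.50-fold, and dexamethasone brought it down 6.87-fold (-2.78 ± 0.10, adjusted p = 3.0e-10). The LPS+Dex level was 1.96-fold under vehicle (-0.97 ± 0.09, adjusted p = 7.3e-07).

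Footprints of IL1RN showed how far library 4 departs. They were at 132, 125, 129, 1365 and 135 CPM with vehicle, 501, 571, 539, 4553 and 468 CPM with LPS, and 92.3, 85.2, 82.0, 1019 and 88.0 CPM with LPS+Dex. Within libraries 1, 2, 3 and 5 the 3 groups did not overlap, and the 3 libraries numbered 4 had the same order, LPS above vehicle above LPS+Dex. With all libraries neither change passed the test (1.81 ± 1.03, adjusted p = 0.15, and -2.28 ± 1.04, adjusted p = 0.17). The replicate block gave 1.95 (adjusted p = 2.3e-12) and -2.49 (adjusted p = 1.4e-12), and leaving out the libraries numbered 4 gave 1.99 ± 0.07 (adjusted p = 2.3e-17) and -2.57 ± 0.07 (adjusted p = 1.1e-17). Leaving out vehicle library 4 alone gave 3.35 with LPS, and LPS library 4 alone 0.47, while LPS+Dex against LPS ranged from -3.93 to -0.93 over such fits and passed without LPS+Dex library 4 (adjusted p = 0.012). The LPS rise passed without vehicle library 4 (adjusted p = 0.011). DESeq2 gave no adjusted p for this gene in footprints.

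IL18BP was the 1 gene of the 10 that LPS lowered. RNA was at 14.5, 14.0, 13.5 and 13.1 CPM with vehicle, 10.2, 12.5, 10.7 and 10.2 CPM with LPS, and 8.56, 10.8, 9.27 and 9.75 CPM with LPS+Dex. Vehicle was above LPS in every library, while LPS and LPS+Dex overlapped. The fall with LPS was -0.34 ± 0.10 (adjusted p = 0.0096) in RNA and -0.45 ± 0.14 (adjusted p = 0.014) in footprints. Dexamethasone gave -0.18 ± 0.10 in RNA (adjusted p = 0.2) and 0.04 ± 0.14 in footprints (adjusted p = 0.92), neither past the test.

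The receptors divided by what dexamethasone did to them. IL18R1, the ligand-binding chain for IL-18, rose as much as IL1B. Its RNA was at 3.44, 4.09, 5.25 and 3.31 CPM with vehicle, 79.0, 71.4, 81.0 and 78.3 CPM with LPS, and 24.2, 23.8, 23.5 and 22.7 CPM with LPS+Dex. The groups were well apart, and those with LPS were tight. The changes were 4.26 ± 0.13 (adjusted p = 3.8e-12) and -1.72 ± 0.11 (adjusted p = 5.0e-08), so that 26.6% of the LPS increment was left. Footprints gave 4.13 ± 0.21 (adjusted p = 6.0e-10) and -1.52 ± 0.18 (adjusted p = 2.5e-05), with 35.5 to 39.1 CPM in the 5 LPS libraries. Here library 4 lay within the others with LPS (36.6 CPM) and LPS+Dex (13.5 CPM) and below them with vehicle (0.835 CPM, against 1.74 to 2.89).

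IL1RAP, the co-receptor shared by IL-1, IL-33 and IL-36, rose with LPS and fell with dexamethasone. RNA was at 3.06, 2.52, 4.38 and 4.17 CPM with vehicle, 16.5, 10.7, 21.6 and 23.8 CPM with LPS, and 6.35, 5.93, 6.94 and 5.94 CPM with LPS+Dex. The groups did not overlap, though LPS replicate 2 was low. The changes were 2.35 ± 0.23 (adjusted p = 8.8e-07) and -1.53 ± 0.23 (adjusted p = 0.00012). In footprints the LPS libraries were at 40.8 to 44.4 CPM and the changes were 1.95 ± 0.29 (adjusted p = 4.2e-05) and -0.95 ± 0.28 (adjusted p = 0.027). The second call ended, with adjusted p up to 0.065, when LPS 3 or LPS+Dex 1, 2, 3 or 5 was left out. It was -1.14 ± 0.10 (adjusted p = 2.5e-09) without the libraries numbered 4.

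IL1R1, the signalling receptor for IL-1, also rose with LPS, and its mean was higher again with LPS+Dex. RNA was at 4.61, 5.12, 8.12 and 7.03 CPM with vehicle, 21.1, 17.3, 30.8 and 28.2 CPM with LPS, and 35.4, 27.3, 35.7 and 29.1 CPM with LPS+Dex. Both LPS groups lay above vehicle and overlapped each other. The rise was 1.96 ± 0.21 (adjusted p = 1.8e-06), and LPS+Dex against LPS gave 0.39 ± 0.19 (adjusted p = 0.15).

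IL1R1 footprints were few (16 to 156 counts per library), at 0.796, 0.645, 0.600, 1.39 and 0.729 CPM with vehicle, 2.63, 2.83, 3.98, 2.89 and 5.17 CPM with LPS, and 4.94, 6.19, 3.14, 8.22 and 7.55 CPM with LPS+Dex. The LPS and LPS+Dex libraries overlapped. The rise with LPS was 2.12 ± 0.30 (adjusted p = 3.4e-05). LPS+Dex against LPS was 0.78 ± 0.27 with an adjusted p of 0.065, so it missed the threshold. It passed with the replicate block (0.75, adjusted p = 0.013), without the libraries numbered 4 (0.60, adjusted p = 0.045) and with DESeq2 (0.76, adjusted p = 0.036). It also passed when vehicle 4, LPS 5 or LPS+Dex 3 alone was left out (adjusted p down to 0.021).

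IL1R2, the decoy, did not pass with LPS and rose when dexamethasone was added. RNA was at 1.59, 1.94, 1.65 and 1.65 CPM with vehicle, 1.28, 2.29, 1.42 and 2.41 CPM with LPS, and 5.34, 7.03, 6.23 and 8.28 CPM with LPS+Dex. Vehicle and LPS overlapped, and every LPS+Dex library was above both. LPS gave 0.11 ± 0.22 (adjusted p = 0.68; -0.16 under total counts alone), and dexamethasone raised it 3.63-fold over LPS (1.86 ± 0.20, adjusted p = 7.3e-06).

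In footprints IL1R2 was at 2.46, 2.62, 2.10, 3.20 and 2.06 CPM with vehicle, 2.29, 2.59, 2.95, 7.23 and 4.04 CPM with LPS, and 7.93, 9.09, 11.2, 27.1 and 10.7 CPM with LPS+Dex. Every LPS+Dex library was again above every other. The rise with dexamethasone was 1.80 ± 0.36 (adjusted p = 0.0024), or 1.70 ± 0.17 (adjusted p = 2.2e-08) without the libraries numbered 4. LPS alone gave 0.61 ± 0.37 (adjusted p = 0.18), which passed with the replicate block (0.50, adjusted p = 0.027) and not without the libraries numbered 4 (0.37, adjusted p = 0.082).

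**Figure D2:**
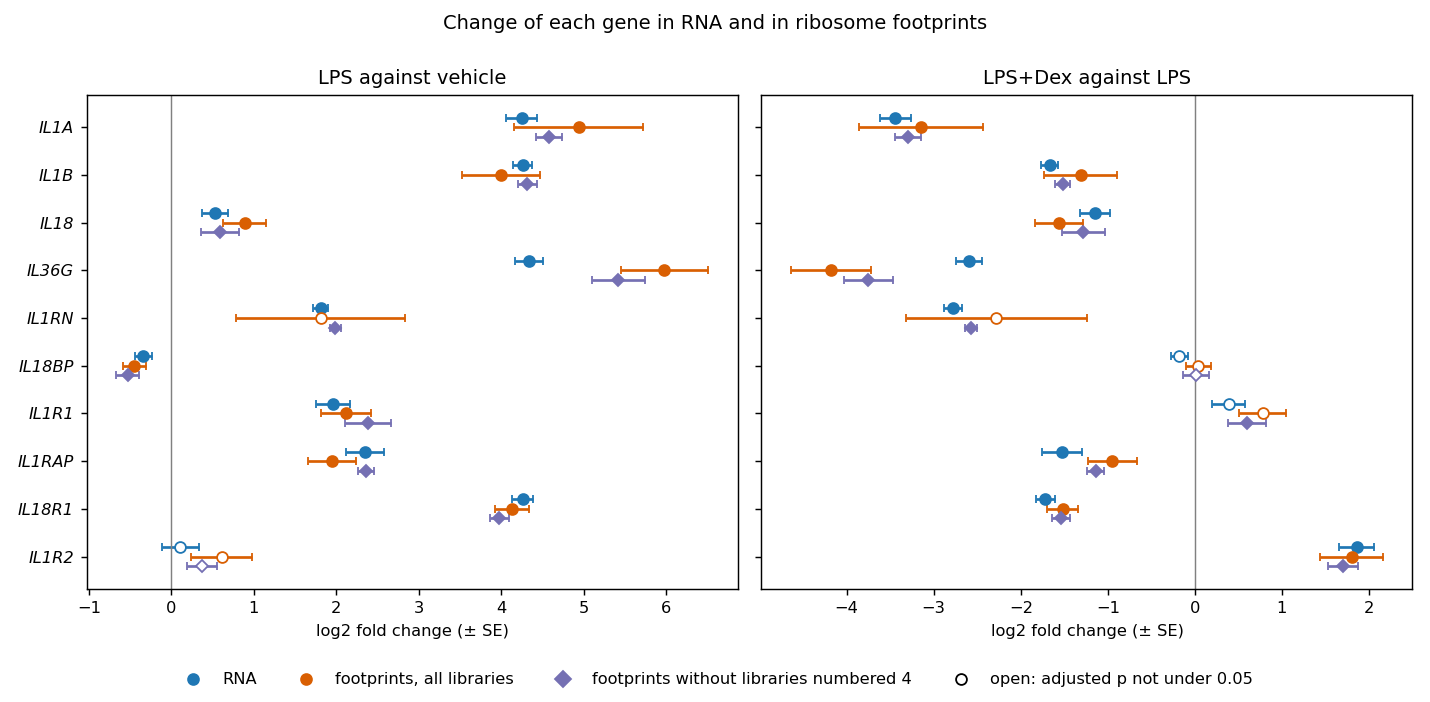
Log2 fold change (± SE) of each gene for LPS against vehicle (left) and LPS+Dex against LPS (right), in RNA (blue circles), in footprints with all libraries (orange circles) and in footprints without the libraries numbered 4 (purple diamonds), with open symbols where the adjusted p is not under 0.05. IL1A, IL1B, IL36G and IL18R1 share RNA rises of 4.25 to 4.34 on the left and spread from -3.44 to -1.67 on the right, and IL1R2 is the gene at the positive end on the right.

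Against vehicle, LPS+Dex left all 10 genes changed in RNA, 7 higher and 3 lower, where 60.2% of genes were called (29.2% higher and 31.0% lower). The higher ones were IL1B (2.59 ± 0.11), IL18R1 (2.54 ± 0.12), IL1R1 (2.34 ± 0.21), IL1R2 (1.97 ± 0.20), IL36G (1.74 ± 0.20), IL1RAP (0.82 ± 0.24) and IL1A (0.81 ± 0.20). The lower ones were IL1RN (-0.97 ± 0.09), IL18 (-0.61 ± 0.18) and IL18BP (-0.52 ± 0.10). IL1B thus stayed 6.03-fold above vehicle while its antagonist was below it.

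In footprints the same comparison gave 7 higher and 1 lower, where 46.4% of genes were called (24.4% higher and 22.0% lower), and 7 higher and 3 lower without the libraries numbered 4. IL1R1 rose by 2.90 ± 0.31, IL1B by 2.7 ± 0.44, IL18R1 by 2.61 ± 0.20, IL1R2 by 2.41 ± 0.37 and IL1RAP by 1.00 ± 0.28, and by 2.99, 2.80, 2.44, 2.06 and 1.22 without the libraries numbered 4. IL1A at 1.78 ± 0.70 (adjusted p = 0.0498; 1.28 ± 0.17, adjusted p = 1.2e-06, without the libraries numbered 4) lost its call in 9 of 15 fits without 1 library (vehicle 1, 2, 3 or 5, LPS 1, 2, 3 or 5, or LPS+Dex 4, where it was 0.79 at the lowest). IL36G at 1.79 ± 0.62 (adjusted p = 0.027) lost it without vehicle 2, 3 or 5 or LPS+Dex 2 or 4, and IL18BP at -0.41 ± 0.14 (adjusted p = 0.028) without vehicle 1 or 3 or LPS+Dex 1 or 5.

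A pair of genes did not pass there with all libraries. IL1RN gave -0.46 ± 1.00 (adjusted p = 0.74), with -0.55 (adjusted p = 1.1e-05) under the replicate block and -0.58 ± 0.07 (adjusted p = 6.8e-08) without the libraries numbered 4, from 130 ± 4.27 to 86.9 ± 4.35 CPM. IL18 gave -0.66 ± 0.28 (adjusted p = 0.065), with -0.62 (adjusted p = 0.039) and -0.70 (adjusted p = 0.021) in the same fits. It also passed without vehicle 1 or LPS 4 alone.

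The ratio of a gene to its natural opponent was read in each library, where the scaling of libraries cancels. It is a description with no test, and since gene length enters its level, only its change between treatments is read. The log2 ratio of IL1RN to IL1B counts in RNA was -4.02 ± 0.30 with vehicle, -6.48 ± 0.07 with LPS and -7.60 ± 0.23 with LPS+Dex (mean ± SD, n = 4). The antagonist thus lost 5.50-fold against IL1B with LPS and a further 2.17-fold with dexamethasone, 12.0-fold in all, and no library of a group overlapped another group. In footprints without the libraries numbered 4 the ratio was -3.68 ± 0.31, -6.02 ± 0.08 and -7.08 ± 0.02. With all 5 libraries the changes were -2.22 and -1.10, close to the -2.34 and -1.06 without library 4, since that library is high in all 3 groups.

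The other ratios turned back with dexamethasone. IL1RN to IL1A in RNA went from 4.60 ± 0.56 with vehicle to 2.11 ± 0.05 with LPS and 2.76 ± 0.15 with LPS+Dex, so the antagonist regained 0.65 of the 2.49 it had lost. IL18BP to IL18 went from 2.27 ± 0.22 to 1.41 ± 0.26 and back to 2.36 ± 0.25, within the vehicle spread. The decoy IL1R2 to the signalling IL1R1 went from -1.82 ± 0.43 to -3.72 ± 0.65 and then to -2.25 ± 0.44, a rise of 1.47 with dexamethasone. Footprints moved the same way for each of these pairs, with 5.55, 2.77 and 3.51 for IL1RN to IL1A, 1.70, 0.38 and 1.88 for IL18BP to IL18, and 1.61, 0.04 and 1.06 for IL1R2 to IL1R1. Without the libraries numbered 4 these were 5.22, 2.62 and 3.32, then 1.67, 0.54 and 1.79, and then 1.71, -0.28 and 0.89. LPS and LPS+Dex overlapped through LPS library 4 alone for IL1RN to IL1A (3.39) and IL1R2 to IL1R1 (1.31).

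**Figure D3:**
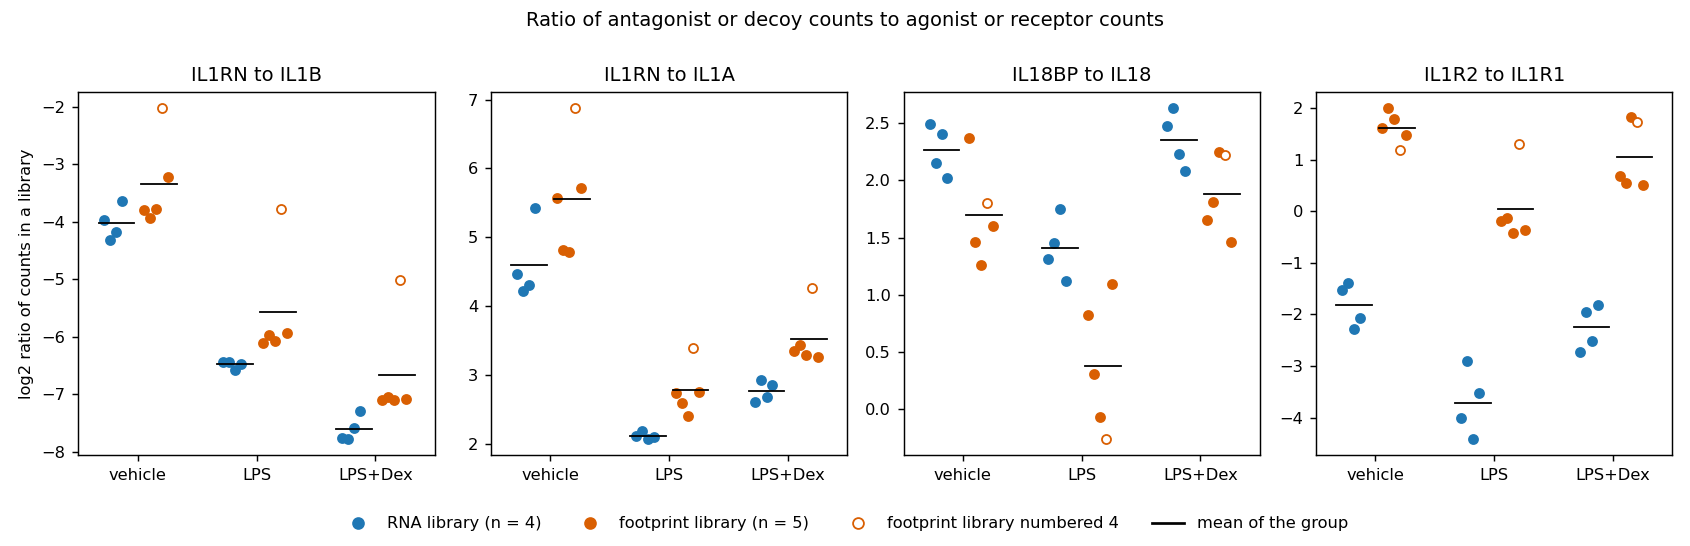
Log2 ratio of counts within each library for 4 pairs of a restraining gene and its opponent, by treatment, with RNA in blue, footprints in orange, library 4 of the footprints as an open circle and bars at the group means. IL1RN to IL1B falls at both steps (RNA means -4.02, -6.48 and -7.60), while the other 3 ratios fall with LPS and rise again with LPS+Dex.

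Translational efficiency (TE, the footprint change minus the RNA change) passed for 0 of the 10 genes with LPS against vehicle, where 1.78% of 11944 genes were called (1.02% higher and 0.762% lower). It passed for 0 with LPS+Dex against LPS, where 0.0502% were called (0.0419% higher and 0.00837% lower), and for 0 with LPS+Dex against vehicle, where 1.93% were (1.32% higher and 0.611% lower). DESeq2 also called 0 after adjustment in each comparison, but gave no adjusted p for IL1RN. At an unadjusted p under 0.05 the edgeR test had 1, 1 and 0 of the 10. The gene was IL36G both times, at 1.67 ± 0.63 with LPS (adjusted p = 0.23) and -1.58 ± 0.51 with dexamethasone (adjusted p = 0.61). With the replicate block these passed, at 1.48 (adjusted p = 0.047) and -1.46 (adjusted p = 0.047), from 1 to 10 footprint counts per vehicle library. Without the libraries numbered 4 they did not, at 1.11 (adjusted p = 0.16) and -1.16 (adjusted p = 0.18). IL1RN in LPS+Dex against vehicle gave 0.54 ± 1.16 (adjusted p = 0.65), and 0.45 with the block (adjusted p = 0.015) or 0.40 without the libraries numbered 4 (adjusted p = 0.029). The SE of the TE change with LPS was 0.18 for IL18BP and 1.16 for IL1RN, the most and the least precise of the 10.

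The genes differed more among themselves in footprints per mRNA than any of them did between treatments. The ratio of mean footprint CPM to mean RNA CPM with vehicle, without the footprint libraries numbered 4, was 2.65 for IL1RN, higher than in 96.1% of 11944 genes, 2.37 for IL1RAP (94.5%), 2.10 for IL1B (92.6%) and 1.72 for IL1A (88.0%). It was lowest for IL1R1, at 0.111 (3.96%). With all footprint libraries the ratio was 7.66 for IL1RN, 3.19 for IL1RAP, 3.06 for IL1B, 2.48 for IL1A and 0.134 for IL1R1. The decoy IL1R2 stood at 1.35 (79.7%) and IL18R1 at 0.595 (41.3%), between the co-receptor IL1RAP and IL1R1. Whether exons or coding sequence were counted is not given, and long untranslated stretches would lower the ratio, which makes this a description of the counts. With LPS+Dex the IL1R1 ratio was 0.171 (8.65%), and it stayed the lowest of the 10.

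**Figure D4:**
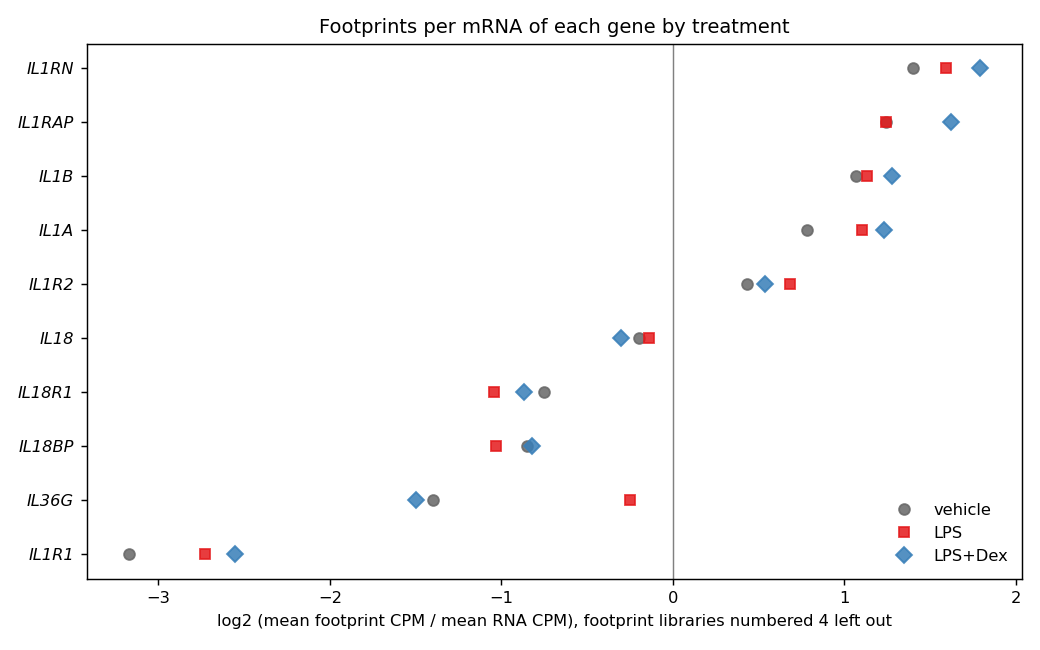
Log2 ratio of mean footprint CPM (libraries 1, 2, 3 and 5) to mean RNA CPM (4 libraries) for each gene with vehicle, LPS and LPS+Dex. IL1RN, IL1RAP, IL1B and IL1A lie on the right and IL1R1 on the far left under all 3 treatments, and IL36G is the gene whose LPS point stands farthest from its other points.

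The genes around the family were read from a list of 45: other ligands and receptors, inflammasome and processing genes, and receptor signalling genes, of which 35 could be tested in RNA. With LPS 22 of the 35 rose and 6 fell, where 28.6% of all genes were called higher and 33.6% lower. With dexamethasone 5 rose and 11 fell against LPS, where 15.5% of all genes were called higher and 15.4% lower. In footprints 21 rose and 6 fell with LPS, where 25.4% of all genes were called higher and 27.2% lower. With dexamethasone 5 rose and 9 fell there, where 9.08% were called higher and 7.99% lower. Without the libraries numbered 4 the footprint counts of the list were 24 and 7 with LPS, and 7 and 13 with dexamethasone. With libraries scaled by total counts alone the counts with LPS were 19 and 9 in RNA and 13 and 9 in footprints, and those with dexamethasone 6 and 11 in RNA and 3 and 7 in footprints. The fits that omitted footprint LPS 1, 3 or 4, or any LPS+Dex footprint library except 4, had 3 rising with dexamethasone. These shares of all genes are those of the main fits, and the share without the libraries numbered 4 is not given here for LPS footprints. Without the libraries numbered 4, calls over all genes in LPS+Dex against LPS footprints rose as well, to 3855 of 12233. With total counts alone, a smaller part of all calls was higher with LPS and a larger part with LPS+Dex against LPS. Those shares are given with the dependence on processing.

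Among the other ligands and receptors, IL18RAP, the signalling partner of IL18R1, had the largest rise of the list. It went from 0.816 ± 0.340 CPM to 58.7 ± 4.95 CPM with LPS and 14.8 ± 2.31 CPM with LPS+Dex in RNA (6.17 ± 0.23 and -1.98 ± 0.17). Both chains of the IL-18 receptor thus rose with LPS and fell with dexamethasone. The alarmin IL33 rose by 3.85 ± 0.31 and fell with dexamethasone (-3.04 ± 0.30), from 0.149 to 2.38 and 0.284 CPM. It had at most 10 RNA counts in a vehicle library and 8 with LPS+Dex, so it passed the filter through its LPS libraries. SIGIRR, a receptor that dampens signalling by the family, went the other way in RNA, with -1.76 ± 0.17 and 0.68 ± 0.17 (adjusted p = 0.008 for the latter). Its footprints also fell with LPS, but their change with dexamethasone was not called. They were at 2.75 ± 0.528 CPM with LPS and 3.09 ± 0.602 CPM with LPS+Dex (mean ± SD, n = 5). The receptors for IL-33 and IL-36, IL1RL1 and IL1RL2, had at most 2 and 6 counts in any RNA library.

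Of 13 inflammasome and processing genes tested in RNA, 7 rose and 3 fell with LPS, where 28.6% of all genes were called higher and 33.6% lower. With dexamethasone 2 rose and 5 fell, where 15.5% of all genes were called higher and 15.4% lower. The DNA sensor AIM2 had the largest rise, 4.98 ± 0.17, from 1.51 to 48.4 CPM, and NLRC4, a sensor of bacterial proteins, the largest fall, -2.55 ± 0.12. With dexamethasone CASP5, a caspase that senses LPS inside cells, fell most (-1.62 ± 0.11), and MEFV, which encodes pyrin, rose most (0.87 ± 0.10).

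Of 18 signalling genes, 12 rose and 2 fell in RNA with LPS, where 28.6% of all genes were called higher and 33.6% lower. The ubiquitin ligase PELI1 (4.36 ± 0.10) led the rises and the kinase adaptor TAB1 (-1.27 ± 0.11) the falls. With dexamethasone 2 rose and 3 fell, near the 30.9% of all genes called (15.5% higher and 15.4% lower). IRAK3, the family member that restrains IRAK signalling, had risen by 0.99 ± 0.08 with LPS and rose by a further 1.93 ± 0.08 (adjusted p = 5.5e-10), in footprints by 2.28 ± 0.15. MAP3K8, the kinase that feeds the ERK pathway, fell most (-0.91 ± 0.09). In TE with LPS, 34 genes of the list were tested, where 1.02% of all genes were called higher and 0.762% lower. NFKBIZ (1.33 ± 0.19, adjusted p = 0.00027) and MAP3K8 (0.68 ± 0.15, adjusted p = 0.014) rose while MYD88 fell (-0.81 ± 0.19, adjusted p = 0.024). The MYD88 call ended without RNA vehicle 1 or 2 or RNA LPS 1 or 3. Under total counts alone NFKBIZ was at 1.11 (adjusted p = 0.017), and the calls of MAP3K8 (0.49, adjusted p = 0.6) and MYD88 (-0.94, adjusted p = 0.18) ended. The block, DESeq2, and leaving out the libraries numbered 4 or footprint LPS+Dex 4 alone, each gave 3 lower genes in place of 1. None of the 34 passed in TE with dexamethasone in the main fit, where 0.0502% of all genes were called. The replicate block gave 1 higher and 0 lower, where 66 of 11944 genes were called.

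**Figure D5:**
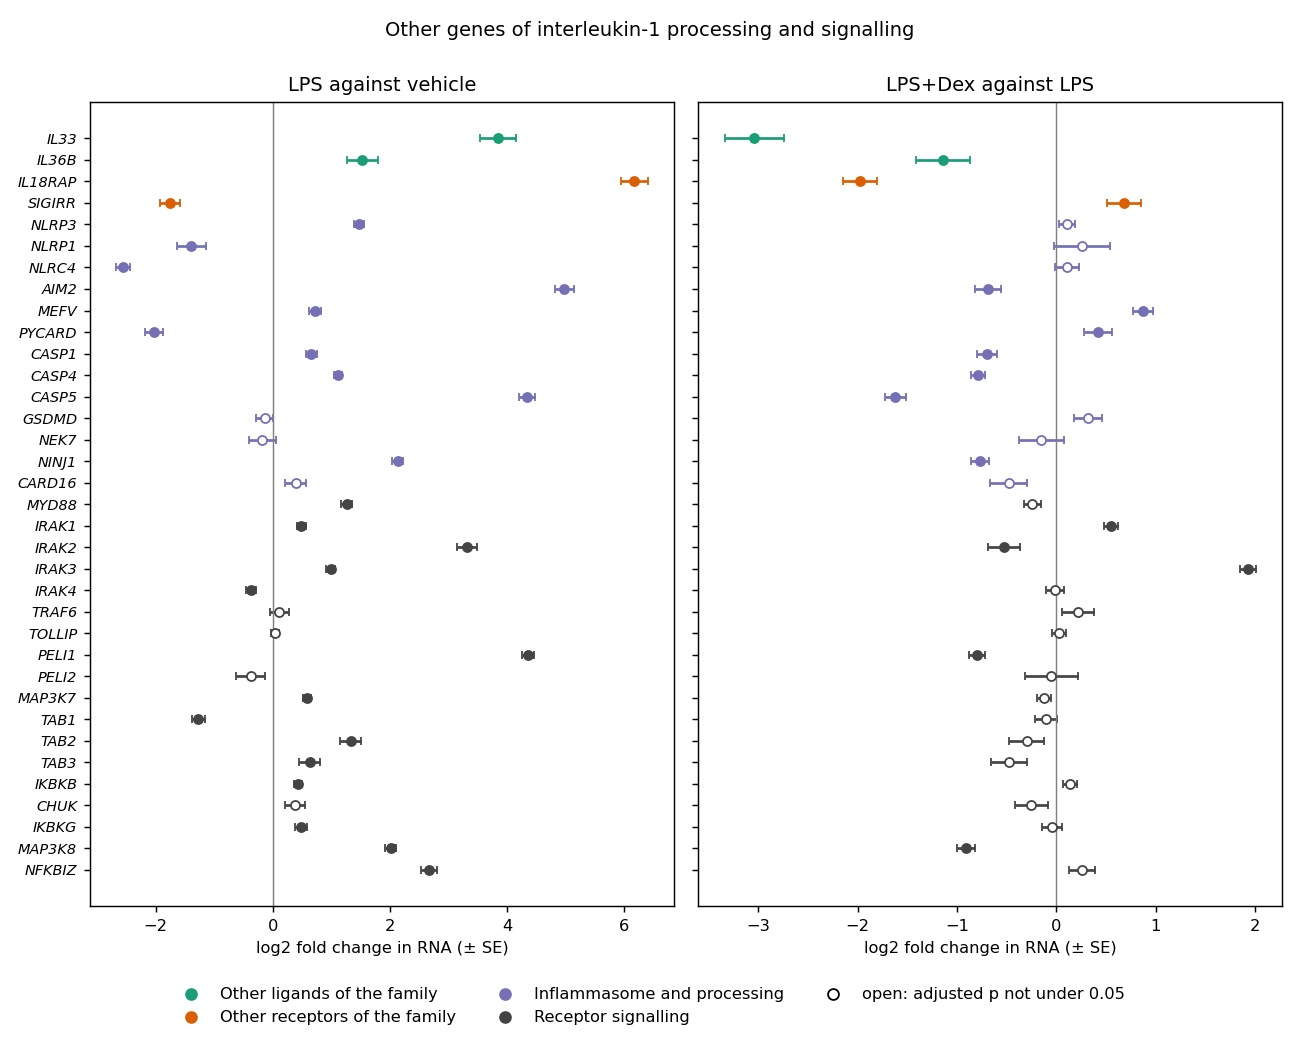
Log2 fold change in RNA (± SE) of the 35 other genes of interleukin-1 processing and signalling that could be tested, for LPS against vehicle (left) and LPS+Dex against LPS (right), coloured by list, with open circles where the adjusted p is not under 0.05. IL18RAP (6.17) and AIM2 (4.98) lie farthest right with LPS, and IRAK3 (1.93) and IL33 (-3.04) are the extremes with dexamethasone.

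The genes with the most similar course across the 12 RNA libraries were sought outside the family. The comparison used the 8459 genes whose mean reached 5 CPM in RNA and in footprints. Genes of the family were left out of the matches named, so their likeness to each other is not given. The measure was Pearson's r of log2 CPM, a description that the shared treatments drive. For IL1B these were TSLP, CD83 and CXCL8 (r = 0.998 each). For IL1A they were PIM1 (0.994), CCDC50 (0.990) and CSRNP1 (0.986), and for IL1RN they were ATF3 (0.990), FCAMR (0.989) and PLA2G4A (0.987). IL1R2 was most like SIGLEC14 (0.980), MTMR11 (0.978) and MAPK7 (0.978). For IL18, whose range is small, the closest were PBX2 (0.950), VRK2 (0.942) and PCNX4 (0.934).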

How the data were processed

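The authors deposited raw read counts per Ensembl gene, 1 table for footprints and 1 for RNA-seq, with 1 column per library. The submitters' processing notes list featureCounts 2.0.1, STAR 2.7.10a and DESeq2 1.26.0 for both assays, Bowtie2 2.4.5 for footprints, and GRCh38/hg38. Which feature was counted, and on which strand, is not given in the sources used here. From these deposited counts, changes were tested 2-sided with edgeR 4.0.16 in R 4.3.3 (filterByExpr with minimum count 10 and total 15, TMM, quasi-likelihood F test, Benjamini-Hochberg over all genes of a comparison, called under 0.05), in 1 fit per assay with all 3 treatments. TE was tested over 27 libraries. Changes are relative to the average gene. DESeq2 1.42.0 was an alternative. The 10 genes, the lists and the motifs were chosen with earlier results of these data known. Named genes are the 10, the called extremes of each list in RNA, and the 3 most alike of 5 genes; IL1RL1, IL1RL2, IL36RN, NLRP3, CASP1, PYCARD and the TE calls were chosen after their values were seen. The labels do not say that replicates are separate cultures, so p-values measure the spread between these samples. Same-numbered footprint libraries correlated above 0.1 in 15 of 15 pairs after treatment means were removed (median 0.271), and in 3 of 12 without the libraries numbered 4 (median 0.045). Differently numbered pairs did so in 34 of 60 (median 0.169), and in 2 of 36 without those libraries (median -0.017). The block and leaving out those libraries both bear on library 4, so they are not separate checks. Promoter windows are RefSeq's (GRCh38.p14). The scripts were tested on simulated data.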

Additional observations from a re-analysis of the deposited data

Results flagged for a closer look

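Levels were checked for a library far from the others of its group in all 60 groups of the 10 genes, and 16 groups had one. Of these, 14 were footprint libraries numbered 4. For a single group chance gives about 1 in 20, but the genes share the same libraries. The 60 groups are therefore not independent, and the 16 cannot be set against that rate. In vehicle footprints library 4 was at 1365 CPM for IL1RN, 5569 for IL1B, 11.6 for IL1A, 22.8 for IL1RAP and 1.39 for IL1R1. In LPS footprints it was at 4553 CPM for IL1RN, 62273 for IL1B, 433 for IL1A and 22.6 for IL36G. In LPS+Dex footprints it was at 1019 CPM for IL1RN, 32751 for IL1B, 53.1 for IL1A, 34.0 for IL1RAP and 27.1 for IL1R2. The same library was not the highest for IL18R1 in any treatment. In RNA, IL1A was low in LPS+Dex replicate 2 (2.87 CPM) and IL1B high in LPS replicate 3 (17540 CPM). The causes were not tested.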

How the results depend on the processing

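Counts of members called kept within 1.5 times of the reported count in RNA under every alternative. Leaving out 1 library at a time gave 9, 8 and 10 in RNA for the 3 comparisons in the order reported, 8 to 9, 5 to 8 and 5 to 9 in footprints (5 without vehicle replicate 3 in LPS+Dex against vehicle), and 0 in TE. The replicate block gave 1 member in TE in each comparison, and leaving out the footprint libraries numbered 4 gave 1 in LPS+Dex against vehicle. In RNA, where same-numbered libraries did not all correlate (lowest -0.336), the replicate block moved IL1R1 in LPS+Dex against LPS past the threshold (0.42, adjusted p = 0.024) and changed no other call there. No member reversed direction past a test. With a count of 2 added, all 24 ratio values stayed within 1 SD. Leaving out the footprint libraries numbered 4 cannot move a mean by 1 SD, as that SD includes library 4. Those 12 values are therefore no check: IL1RN to IL1B with LPS, for example, went from -5.57 to -6.02. Scaling by total counts alone shifted the median gene with LPS by -0.319 in RNA and -0.466 in footprints and moved the share of higher calls from 46.0% to 25.1% and from 48.3% to 18.1%. With LPS+Dex against LPS the shares went from 50.2% to 61.6% and from 53.2% to 65.5%, with LPS+Dex against vehicle from 48.5% to 28.7% and from 52.5% to 23.4%, and in TE from 57.3%, 83.3% and 68.4% to 34.1%, 62.5% and 52.2%. Without a low-count filter IL1A footprints in LPS+Dex against vehicle lost their call (adjusted p = 0.055). Over all genes, 2083 called in footprints for LPS+Dex against LPS became 3769 with the block and 3855 without the libraries numbered 4, and 213, 6 and 231 in TE became 878, 66 and 1453 with the block, 699, 51 and 1023 without those libraries, and 435, 25 and 467 with DESeq2. Total counts alone gave 135 and 115 in TE for the comparisons with vehicle. Leaving out 1 library moved the TE counts over all genes beyond 1.5 times in some fits: to 135 without RNA LPS replicate 1 for LPS, to 3 without footprint LPS replicate 1 or RNA LPS+Dex replicate 1, 10 without footprint vehicle replicate 4, 14 without footprint LPS+Dex replicate 4 and 12 without RNA vehicle replicate 3 for LPS+Dex against LPS, and to 152, 125, 118 and 135 without RNA vehicle replicate 3 or 4 or RNA LPS+Dex replicate 2 or 4 for LPS+Dex against vehicle. Depth limits footprints of the genes with few counts, such as IL36G with 1 to 10 and IL1R1 with 16 to 23 counts per vehicle library.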

Other observations

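The antagonist of the IL-36 receptor, IL36RN, was counted rarely, with at most 42 footprint counts in a library. They were at 0.258 ± 0.149 CPM with vehicle, 1.10 ± 0.966 with LPS (0.470 to 2.76) and 0.154 ± 0.162 with LPS+Dex (n = 5). The footprints rose with LPS by 2.10 ± 0.64 (adjusted p = 0.012). They fell with dexamethasone by 2.80 (adjusted p = 0.012), or by 2.74 without the libraries numbered 4 (adjusted p = 0.0013). No library had more than 9 counts with vehicle or 6 with LPS+Dex, under the filter's minimum of 10. IL36RN was therefore tested through its LPS libraries, where it was high, and these p-values are no independent support. It was not tested in RNA. The inflammasome sensor NLRP3 rose with LPS in RNA by 1.47 ± 0.08 and gave 0.11 ± 0.08 with dexamethasone (adjusted p = 0.3), at 164, 452 and 489 CPM in the 3 treatments, while CASP1, the enzyme that cuts pro-IL-1β, rose by 0.66 ± 0.10 and then fell (-0.70 ± 0.10). The adaptor PYCARD, which joins sensor and caspase, went from 72.7 to 17.8 CPM with LPS (-2.03 ± 0.15) and to 23.8 CPM with LPS+Dex (0.42 ± 0.14, adjusted p = 0.039), a call that ended without RNA LPS 1, 3 or 4 or RNA LPS+Dex 2, 3 or 4.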
